A study of Mus musculus with 6 samples.

Results

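The genes of interleukin-6 (Il6), interleukin-1 alpha (Il1a), interleukin-1 beta (Il1b), the interleukin-1 receptor antagonist (Il1rn) and the decoy interleukin-1 receptor (Il1r2) were followed in mouse eosinophils given IL-33. They are 5 genes of the 23420 in the table, taken by symbol for their function, with earlier results of these data known. The IL-33 group (3 libraries) held wild-type eosinophils grown from bone marrow and exposed for 3 hours to IL-33 at 2.5 ng/mL, and the PBS group (3 libraries) held the same kind of cells without IL-33. Both groups had been cultured with stem cell factor and FLT3 ligand, each at 100 ng/mL, until day 4 and then with IL-5 at 20 ng/mL, so every library comes from cells kept in IL-5. Cells were used on day 14 after removal of dead cells, and total RNA depleted of ribosomal RNA was sequenced in bulk. The labels leave unsaid whether replicates were separate animals or cultures. Each p-value therefore reflects the variation among these libraries, part or all of which may be technical.

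IL-1 alpha and IL-1 beta signal through the receptor encoded by Il1r1, which pairs with the accessory protein encoded by Il1rap. The antagonist encoded by Il1rn occupies that receptor without signalling, and the receptor encoded by Il1r2 binds IL-1 but cannot signal. IL-33 belongs to the same cytokine family and signals through its own receptor chain, encoded by Il1rl1 and known as ST2, with the shared accessory protein. IL-6 acts through its receptor, encoded by Il6ra, and the shared subunit gp130, encoded by Il6st. IL-1 beta is made as a precursor that is cut by caspase-1 before release, so RNA levels do not measure the secreted cytokine.

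The recovered reads numbered 9362650 to 10785521 in IL-33 libraries and 8218303 to 8981930 in PBS libraries. The share of reads on Rn45s, the ribosomal RNA precursor gene, was 24.3% in IL-33 replicate 1, 59.6% in replicate 2 and 54.8% in replicate 3, against 13.7% to 24.8% in PBS libraries. All 12 eosinophil markers on the list passed the filter described below, and their summed normalized counts were 25059 to 35783 in IL-33 libraries and 54287 to 65300 in PBS libraries. Of these markers, 10 fell with IL-33, Epx and Prg2 (granule proteins) and Ccr3 (the eotaxin receptor) among them, and Gata1 rose. Over all genes tested, 14.4% were called lower and 17.4% higher. The marker Ear2, among the 10, reached the filter through the PBS libraries alone, which favours a call of lower. In these bulk libraries, fewer cells of a type and less RNA per cell cannot be told apart.

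With IL-33, Il6, Il1b and Il1rn rose, while Il1r2 did not pass the test. Il6 and Il1b were near the filter minimum of 10 normalized counts in PBS libraries, and their means with IL-33 were 31.6 and 29.4 times those in PBS. Without IL-33 replicate 1 these factors were 17.5 for Il6 and 14.8 for Il1b. Il1rn was abundant in both groups, and its mean was 3.26 times as high with IL-33. Il1a had few reads and was not tested with the others. A gene was tested when its normalized count reached 10 in at least 3 libraries, which 10544 genes and 4 of the 5 members did, and it was called at an adjusted p under 0.05 in limma's moderated test on log2(normalized count + 1). Of all genes tested, 17.4% were called higher and 14.4% lower, and 25.5% had all IL-33 values above all PBS values, as did 3 of the members tested. For Il6 the filter itself depended on the 3 IL-33 libraries and 1 PBS library, so these member counts are a description. The count of members called lower was 0 by limma, and it was also 0 at an unadjusted p under 0.05, by edgeR and by DESeq2.

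**Figure D1:**
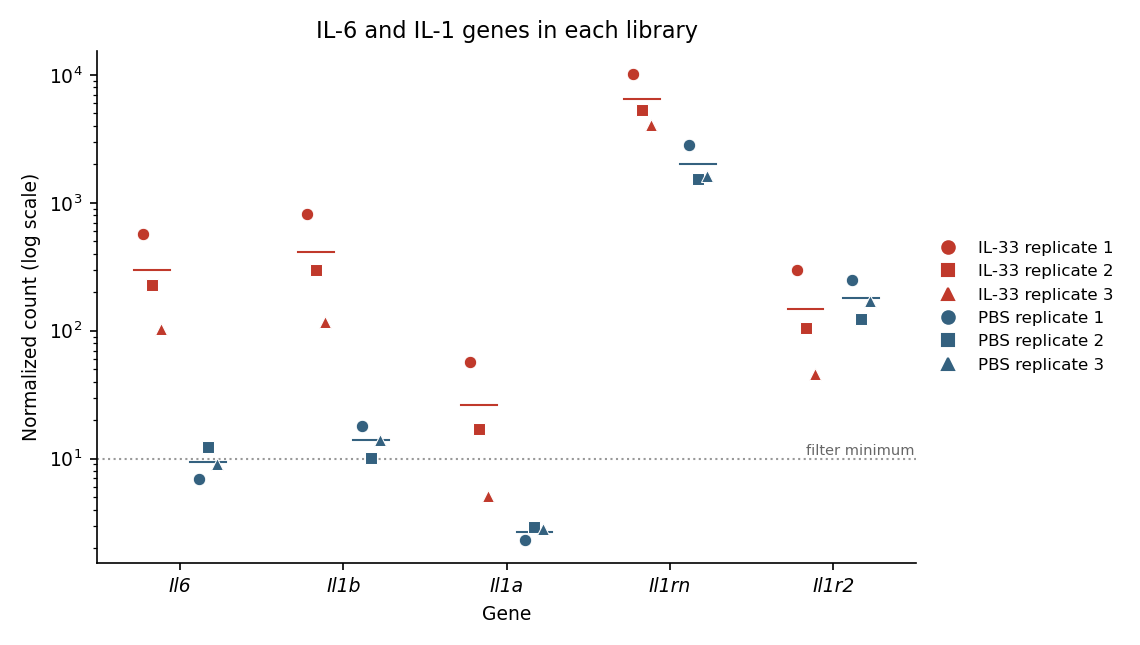
Normalized counts (log scale) of the 5 genes in each library, IL-33 left of PBS for each gene. Points are single libraries, bars are group means and the dotted line marks the filter minimum of 10. For Il6, Il1b and Il1rn every IL-33 point lies above every PBS point, and for Il1r2 the groups overlap.

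Il6 encodes a cytokine of the acute phase response and of B and T cell help, and lies on chromosome 5 (30013114 to 30019981, plus strand, GRCm38). It had 567, 228 and 103 normalized counts in IL-33 replicates 1, 2 and 3, against 6.99, 12.4 and 9.09 in PBS replicates 1, 2 and 3. The groups did not overlap, and the lowest IL-33 library stood 8.36-fold above the highest PBS library. The means were 299 ± 240.2 with IL-33 and 9.48 ± 2.71 with PBS (SD, n = 3). The log2 fold change was 4.54 (SE 0.55, 95% interval 3.27 to 5.81, adjusted p = 0.001265, limma), rank 16 of the genes tested. Its recovered reads were 631, 148 and 61 in IL-33 libraries and 9, 17 and 13 in PBS libraries, so counting error is largest in PBS.

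Il1b encodes a cytokine that activates endothelium and leukocytes, and lies on chromosome 2 (129364570 to 129371139, minus strand). It had 820.0, 297 and 117 normalized counts in IL-33 replicates 1, 2 and 3, against 17.9, 10.2 and 13.98 in PBS replicates 1, 2 and 3. Again every IL-33 library lay above every PBS library, and replicate 1 was the highest of the IL-33 group. The means were 411 ± 365 with IL-33 and 14.01 ± 3.84 with PBS (SD, n = 3). The log2 fold change was 4.39 (SE 0.61, 95% interval 2.98 to 5.79, adjusted p = 0.002208, limma), rank 20 of the genes tested. An annotated antisense gene, Il1bos, shares 1.31% of its exon bases, and with the strand setting of the counting not given its reads may not be told apart.

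Il1a encodes IL-1 alpha, a cytokine that is active without caspase cleavage, and lies on chromosome 2 (129299610 to 129309972, minus strand), 54.6 kb from Il1b. It had 56.6, 16.9 and 5.08 normalized counts in IL-33 replicates 1, 2 and 3, against 2.33, 2.91 and 2.80 in PBS replicates 1, 2 and 3. The groups did not overlap, but IL-33 replicate 3 held 3 reads, as few as a PBS library. Over all libraries 77 reads fell on Il1a with IL-33 and 11 with PBS, a scaled ratio of 12.2 (95% exact interval 6.44 to 25.4, counting error only). IL-33 replicate 1 held 63 of the 77 reads, and without it the ratio was 4.20 (1.77 to 10.2). Without the filter, the limma estimate for Il1a was 2.33 (log2, SE 0.73) and did not pass (adjusted p = 0.0556 over 16669 genes). On the recovered reads without the filter, it passed in edgeR (3.33, adjusted p = 0.002385) and in DESeq2 (3.32, adjusted p = 0.001127). Exons of another gene, Gm14023, cover 11.25% of its exon bases.

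Il1rn lies on chromosome 2 (24336853 to 24351494, plus strand) and was by far the most abundant of the 5 genes. It had 10153, 5272 and 4090 normalized counts in IL-33 replicates 1, 2 and 3, against 2849, 1521 and 1624 in PBS replicates 1, 2 and 3. The groups did not overlap, although the lowest IL-33 library was only 1.44-fold above the highest PBS library. The group means were 6505 ± 3215 with IL-33 and 1998 ± 739 with PBS (SD, n = 3). The log2 fold change was 1.65 (SE 0.36, 95% interval 0.82 to 2.48, adjusted p = 0.01261, limma), rank 472 of the genes tested. The call was lost without PBS replicate 2 (1.49, adjusted p = 0.06004, limma) and without PBS replicate 3 (1.53, adjusted p = 0.06509, limma). It was also lost when libraries were scaled to equal totals (0.61, adjusted p = 0.3351, limma), a scaling that moved the median of all genes to −1.08 on the log2 scale. Relative to that median the difference was 1.69, as it was with the authors' scaling.

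Il1r2 encodes a decoy receptor best known from neutrophils and macrophages, and lies on chromosome 1 (40074079 to 40125231, plus strand). It had 297, 105 and 45.8 normalized counts in IL-33 replicates 1, 2 and 3, against 251, 123 and 171 in PBS replicates 1, 2 and 3. The IL-33 libraries lay on both sides of the PBS libraries, replicate 1 above all of them and replicates 2 and 3 below all of them. Its means were 149 ± 131 with IL-33 and 181 ± 64.6 with PBS (SD, n = 3). The log2 fold change was −0.62 (SE 0.60, 95% interval −1.99 to 0.75, adjusted p = 0.4394, limma), an interval that holds changes in either direction. Single IL-33 libraries moved this value in opposite directions. Without IL-33 replicate 1 Il1r2 was called lower (−1.32, adjusted p = 0.00769, limma), and without IL-33 replicate 3 the value was 0.02. With the Rn45s share as a covariate it was 0.71 (adjusted p = 0.472, limma).

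The 250 bases before the annotated transcription start are shown for the cytokine genes that rose together, Il6 and Il1b, and for the antagonist Il1rn at the most upstream of its 3 RefSeq starts. They are from RefSeq on GRCm38.p6, written 5′ to 3′ on the strand of the gene, at chr5:30012864-30013113 (plus strand) for Il6, chr2:129371140-129371389 (minus strand) for Il1b and chr2:24336610-24336859 (plus strand) for Il1rn.
Il6: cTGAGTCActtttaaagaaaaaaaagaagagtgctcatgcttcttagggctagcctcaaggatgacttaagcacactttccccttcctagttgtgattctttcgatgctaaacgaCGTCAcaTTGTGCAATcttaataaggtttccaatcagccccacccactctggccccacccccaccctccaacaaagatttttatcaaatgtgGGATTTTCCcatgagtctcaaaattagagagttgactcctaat
Il1b: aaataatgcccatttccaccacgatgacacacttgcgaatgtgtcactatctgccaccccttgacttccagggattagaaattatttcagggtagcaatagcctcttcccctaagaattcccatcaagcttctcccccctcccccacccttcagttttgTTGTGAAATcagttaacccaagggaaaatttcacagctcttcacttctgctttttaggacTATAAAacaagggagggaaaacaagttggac
Il1rn: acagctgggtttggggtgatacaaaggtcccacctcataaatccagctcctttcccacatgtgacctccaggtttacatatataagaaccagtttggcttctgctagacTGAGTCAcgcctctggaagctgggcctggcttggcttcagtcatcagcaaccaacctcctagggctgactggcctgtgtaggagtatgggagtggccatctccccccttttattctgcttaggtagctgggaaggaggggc
Capitals mark matches to 5 short motifs searched on both strands, and no match in these windows overlapped another. The motifs were kB-type GGNNTTNCC, AP-1 TGANTCA, C/EBP-type TTNNGNAAT, the TATA element TATAAA and the CRE half-site TGACG. The Il6 window held the kB-type match GGATTTTCC, ending 35 bases before the start, the C/EBP-type match TTGTGCAAT, the AP-1 match TGAGTCA at its far end and a CRE half-site on the opposite strand, read there as CGTCA. The Il1b window held the C/EBP-type match TTGTGAAAT and a TATA element ending 26 bases before the start. The first Il1rn window held an AP-1 match, and another start of Il1rn had a kB-type and a C/EBP-type match. The Il1a window held an AP-1 match and a TATA element, and the Il1r2 window held none of the 5 motifs. Such matches are common, since 13.5% of 32817 promoters of this length held the kB-type motif, 6.75% the AP-1 motif, 10.2% the C/EBP-type motif, 12.4% the TATA element and 17.7% the CRE half-site. They describe the sequence and do not show binding.

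Per kilobase of exon, the order of levels differed between the groups and was the same in all 3 libraries of each. With IL-33 the mean normalized counts per kilobase were 1175 ± 581 for Il1rn, 216 ± 192 for Il1b, 123 ± 98.9 for Il6, 78.1 ± 68.8 for Il1r2 and 13.3 ± 13.7 for Il1a (SD, n = 3). With PBS they were 361 ± 133 for Il1rn, 95.1 ± 33.9 for Il1r2, 7.35 ± 2.01 for Il1b, 3.90 ± 1.12 for Il6 and 1.36 ± 0.156 for Il1a (SD, n = 3). Il1r2 thus stood above Il1b and Il6 in each PBS library and below both in each IL-33 library. Neighbours in the IL-33 order had overlapping ranges over the libraries, except where Il1rn stood above Il1b. The order of Il1b and Il6 in PBS rested on few reads. Per kilobase, the ratio of Il6 to Il1b was 0.307 in PBS replicate 1 (exact 95% interval 0.125 to 0.689), 0.954 in replicate 2 (0.442 to 2.09) and 0.511 in replicate 3 (0.233 to 1.08), so in replicates 2 and 3 they did not differ beyond counting error.

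The balance of antagonist and decoy receptor to IL-1 beta was compared within each library, which removes differences in depth and scaling. The ratio of Il1rn to Il1b normalized counts was 12.4, 17.8 and 35.0 in IL-33 replicates 1, 2 and 3, against 159.5, 149 and 116 in PBS replicates 1, 2 and 3. Il1rn stood above Il1b per kilobase in every library, but by a smaller factor in every IL-33 library. The mean ratio was 21.7 ± 11.8 with IL-33 and 142 ± 22.7 with PBS (SD, n = 3). Log2 differences of ratios, and their tests, were taken from per-library differences of log2(normalized count + 1), not from the mean ratios. For Il1rn the log2 difference was −2.73. The ratio of Il1r2 to Il1b was 0.362, 0.352 and 0.391 in IL-33 replicates 1, 2 and 3, against 14.04, 12.1 and 12.2 in PBS replicates 1, 2 and 3. Although Il1r2 and Il1b ranged 6.48-fold and 7.01-fold among IL-33 libraries, their ratio there was 0.368 ± 0.0203, against 12.8 ± 1.10 with PBS (SD, n = 3). The log2 difference was −5.01. In IL-33 replicate 3, with 27 and 69 reads, the exact 95% interval of the ratio was 0.241 to 0.619, and in PBS replicate 2, with 169 and 14 reads, it was 6.998 to 22.6 (counting error only).

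The ratio of Il6 to Il1b was 0.692, 0.767 and 0.884 in IL-33 replicates 1, 2 and 3, against 0.391, 1.21 and 0.65 in PBS replicates 1, 2 and 3. These ranges overlapped, and the log2 difference was 0.15. The ratio of Il1a to Il1b was lower in each IL-33 library, at 0.0435 to 0.0691, than in each PBS library, at 0.130 to 0.286, where it rested on 3 or 4 reads of Il1a. In two-sided exact permutation tests over libraries, p was 0.1 for the ratios of Il1rn, Il1r2 and Il1a to Il1b and 0.7 for that of Il6. With 3 libraries against 3, 0.1 is the smallest p possible, and over the 4 ratios the Benjamini-Hochberg adjusted values were 0.133 and 0.7 for these exact tests.

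**Figure D2:**
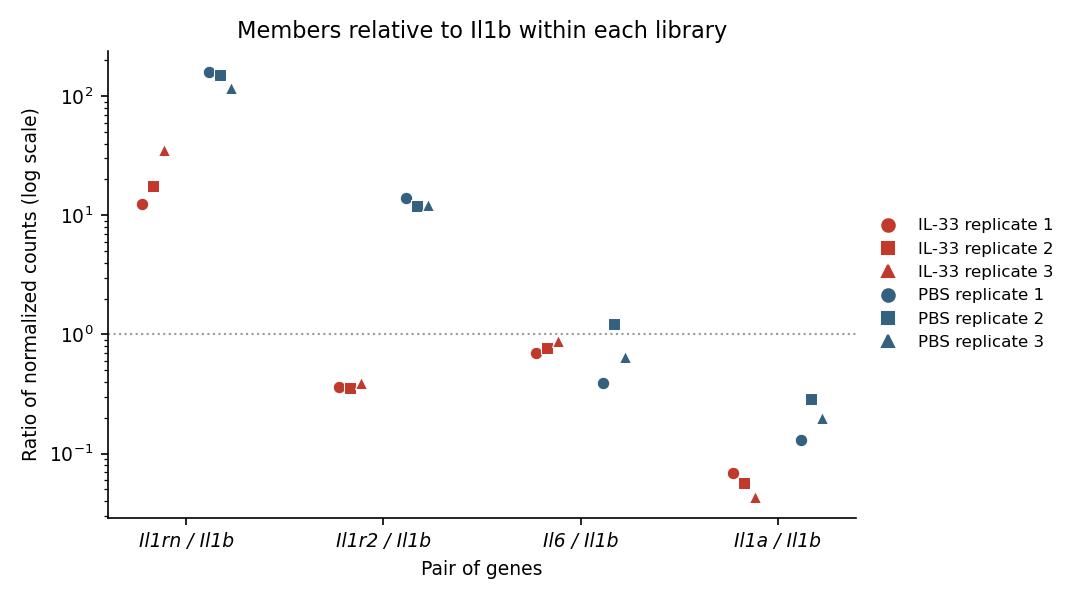
Ratio of each gene's normalized count to that of Il1b within each library (log scale), IL-33 left of PBS, and the dotted line marks a ratio of 1. The Il1r2 to Il1b ratios lie between 0.352 and 0.391 with IL-33 and between 12.1 and 14.04 with PBS, while the Il6 to Il1b ratios overlap.

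The IL-33 libraries differed among themselves more for these genes than for most. The highest IL-33 library exceeded the lowest 5.49-fold for Il6, 7.01-fold for Il1b, 11.1-fold for Il1a, 6.48-fold for Il1r2 and 2.48-fold for Il1rn, against a median of 1.71-fold over the genes tested. A wider range was found in 3.45% of tested genes than for Il6, 2.13% than for Il1b and 22.0% than for Il1rn. In PBS libraries the ranges were 1.25-fold to 2.04-fold, with a median of 1.25-fold over the genes tested. The 1.25-fold was that of Il1a, on 3 or 4 reads per library. A wider PBS range was found in 9.18% of tested genes than for Il6, 9.69% than for Il1b, 7.26% than for Il1rn and 5.01% than for Il1r2. These 4 genes thus also ranged more than most in PBS. In all 5 genes IL-33 replicate 1 was highest and replicate 3 lowest, an order that 28.6% of tested genes had, while 29.2% had the reverse order. Replicate 1 was also the IL-33 library with the lowest Rn45s share. With that share as a covariate, the log2 fold changes were 5.78 for Il6 (adjusted p = 0.0005272, limma), 5.76 for Il1b (adjusted p = 0.0008058, limma) and 2.31 for Il1rn (adjusted p = 0.007889, limma). Of the IL-33 libraries replicate 1 alone had a share within the PBS range. This fit therefore leans on that library and cannot well separate the share from the treatment.

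**Figure D3:**
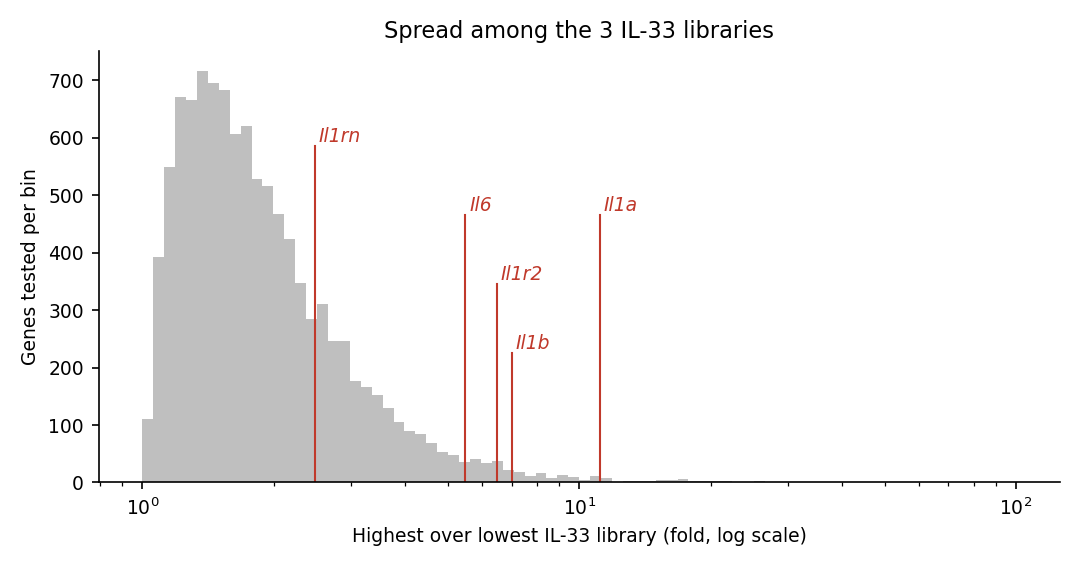
Number of tested genes by the fold range among the 3 IL-33 libraries (highest over lowest, log scale), with the 5 genes marked in red. Il1a was not among the genes tested, and 80 tested genes with an IL-33 library at 0 are not drawn. Il1rn sits at 2.48-fold, and the other 4 genes sit in the right tail between 5.49-fold and 11.1-fold.

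Markers of other cells that such cultures could hold were summed beside these values. The 14 monocyte and macrophage markers summed to 25444 to 32557 normalized counts with IL-33 and 9334 to 12018 with PBS, most of it from Emr1, which encodes the F4/80 antigen that mouse eosinophils also carry. Of the 9 tested, Emr1, Csf1r and Cd14 rose and Ccr2 fell, and C1qa, C1qc and Fcgr1 were at or near 0 in every library. Lyz2, Ly6c2 and Cd68 were present in every library and not called, and C1qb reached 13.6 in IL-33 replicate 3. The 11 neutrophil markers summed to 2429 to 3198 with IL-33 and 3104 to 3687 with PBS. Of the 10 tested, S100a9, Mpo and Cxcr2 fell. Beside these marker calls, 17.4% of all genes tested were called higher and 14.4% lower. The order of the IL-33 libraries seen for Il1r2, with replicate 1 highest and replicate 3 lowest, was shared by 28.6% of tested genes. It was shared by 7 of the 11 neutrophil, 5 of the 12 eosinophil and 3 of the 14 monocyte and macrophage markers. In the lists that follow it was shared by 2 of 11 mast cell and basophil, 2 of 8 dendritic cell, 0 of 7 stromal and 2 of 10 lymphoid markers. These counts include markers below the filter, whose order rests on few reads, while the 28.6% covers tested genes only. Both dendritic cell markers with this order, Flt3 and Clec9a, were below the filter. Ngp, the most abundant neutrophil marker, did not have it, at 1357, 1684 and 1525 in IL-33 replicates 1, 2 and 3. The 11 mast cell and basophil markers summed to 3169 to 4625 with IL-33 and 2255 to 3945 with PBS, most of it from Hdc. Mcpt4 was at 0, and Cpa3 and Ms4a2 were lower among the 8 tested. Cpa3 and Ms4a2 reached the filter through the PBS libraries alone, which favours a call of lower. The 8 dendritic cell markers summed to 423 to 658 with IL-33 and 290.3 to 375 with PBS, nearly all of it Itgax, the 1 gene tested, which rose. The 7 stromal markers summed to 76.3 to 115 with IL-33 and 50.3 to 88.0 with PBS, most of it from Pdgfrb. Among them Cxcl12 and Lepr were at 0. The 10 lymphoid markers summed to 37.3 to 63.1 with IL-33 and 73.5 to 90.9 with PBS. The part of these cells in the values of Il6, Il1b, Il1rn and Il1r2 was not tested.

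Genes whose values over the 6 libraries lay closest to those of Il6 and Il1b, each centred on its own PBS mean on the log2 scale, began with each other. Il6 and Il1b differed by a root mean square of 0.46 (Pearson r = 0.98 over 6 libraries, which share 2 treatment groups). Next to Il6 came Pilra (0.59), Cxcl2 (0.64), Ak4 (0.78) and Mfsd7a (0.78), and next to Il1b came Cxcl2 (0.52), Pilra (0.55), Irg1 (0.65) and Ak4 (0.69), of 7384 genes compared. Cxcl2 encodes a neutrophil-attracting chemokine, Pilra an inhibitory receptor and Irg1 the enzyme that makes itaconate. Cxcl2 had 1144, 555 and 480 normalized counts in IL-33 replicates 1, 2 and 3, against 51.3, 31.3 and 37.7 in PBS replicates 1, 2 and 3. Il1rn was closest to Srxn1, the sulfiredoxin gene, at 0.11 (r = 0.99), then to the chemokine gene Ccl4 (0.19), Fndc3a (0.21), Vmp1 (0.21) and Adam17 (0.24). Il1r2 was closest to Sh3bgrl, Tgfbr1 and Spp1 (0.23 each), then Ranbp2 and Cstb (0.25 each).

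Beside the members Il6, Il1b and Il1rn, the ligand genes Il1f9, Ebi3, Osm and Lif rose. Of 10 IL-1 family ligand genes in the table, 3 were tested and all 3 rose, against 17.4% of all genes tested. These were the members Il1b and Il1rn, chosen with earlier results known, and Il1f9, which encodes IL-36 gamma. The share is thus a description, and 7 of the 10 were below the filter. Il1f9 averaged 106 ± 46.3 normalized counts with IL-33 and 21.9 ± 5.30 with PBS (SD, n = 3; log2 fold change 2.16, SE 0.35, limma adjusted p = 0.004378). Of 11 IL-6 family ligand genes, 6 were tested, with a median of 1.28 on the log2 scale against −0.03 over all genes. Of these, 4 rose (66.7%, against 17.4% of all genes tested), a share that counts the member Il6 and is likewise a description. Beside Il6 these were Ebi3, a subunit of IL-27 (log2 fold change 1.83), Osm, which encodes oncostatin M (1.29), and Lif, the leukemia inhibitory factor gene (1.27). Ebi3 had 408, 339.9 and 295 in IL-33 replicates 1, 2 and 3, against 92.4, 94.6 and 102 in PBS replicates 1, 2 and 3. Il1b, Il1f9, Il6, Ebi3 and Osm were called without any 1 of the 6 libraries, while Lif lost its call when PBS replicate 2 was left out (adjusted p = 0.05703, limma). Scaled to equal totals, 1 of the 3 IL-1 family and 1 of the 6 IL-6 family ligand genes were called higher. Of all genes called at that scaling, 4.49% were higher. The medians there were 1.15 for the IL-1 list, 0.27 for the IL-6 list and −1.08 over all genes. In neither list was a gene lower by limma, at an unadjusted p under 0.05, by edgeR or by DESeq2. Of all genes tested 14.4% were called lower by limma, and 3 and 6 genes are too few to tell 0 from that share.

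Of the receptor and soluble antagonist genes of the IL-1 family that were tested, 57.1% were not called, against 68.1% of all genes tested. Il1r1, the signalling IL-1 receptor, was below the filter, with 0.899 to 1.69 normalized counts in IL-33 libraries and 1.40 to 2.33 in PBS libraries. Il1rl1, the receptor chain for IL-33 itself, had 3951, 1658 and 1015 normalized counts in IL-33 replicates 1, 2 and 3, against 1753, 1492 and 1822 in PBS replicates 1, 2 and 3. Its groups overlapped (log2 fold change 0.16, SE 0.42, adjusted p = 0.7882, limma). Il1rap averaged 81.4 ± 9.81 with IL-33 and 66.8 ± 5.41 with PBS (SD, n = 3; log2 fold change 0.28, adjusted p = 0.3264, limma). Of 11 IL-1 family receptor and soluble antagonist genes, 7 were tested, with Il1r2 among them. Il18bp, a secreted IL-18 antagonist, rose (0.90, adjusted p = 0.02406, limma), and its value was −0.14 when scaled to equal totals. Sigirr, an inhibitory receptor (−1.15, adjusted p = 0.04023, limma), and Il18rap, a chain of the IL-18 receptor (−0.85, adjusted p = 0.04914, limma), fell. None of these 3 calls held without IL-33 replicate 2 or without any 1 of the PBS libraries. Of these 7 genes, edgeR called 1 higher and 1 lower.

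For IL-6, Il6ra rose, averaging 126 ± 21.7 with IL-33 and 58.8 ± 1.20 with PBS (SD, n = 3; log2 fold change 1.07, SE 0.21, limma adjusted p = 0.008758). That call was lost without PBS replicate 3 (adjusted p = 0.05049, limma), and the value was 0.04 when scaled to equal totals. Il6st, which encodes gp130, had 39.6, 9.23 and 18.6 in IL-33 replicates 1, 2 and 3, against 73.8, 20.4 and 34.9 in PBS replicates 1, 2 and 3. The groups overlapped (log2 fold change −0.94, SE 0.59, limma adjusted p = 0.2468). Without IL-33 replicate 1 Il6st was called lower (−1.44, adjusted p = 0.02718, limma). Of 8 IL-6 family receptor genes, 5 were tested and 40% of these rose, against 17.4% of all genes tested. Beside Il6ra, the one to rise was Il27ra, the IL-27 receptor gene (1.50, limma adjusted p = 0.03675). Its call was lost without IL-33 replicate 2 or 3 and without PBS replicate 2 or 3.

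Of 15 genes that process and release IL-1 beta, 13 were tested, 4 rose (30.8%) and 2 fell (15.4%), against 17.4% and 14.4% of all genes tested, with a median of 0.20 on the log2 scale against −0.03 over all genes. Nlrp3, the sensor of the inflammasome that activates caspase-1, had 541, 466 and 336 normalized counts in IL-33 replicates 1, 2 and 3, against 101, 74.9 and 62.2 in PBS replicates 1, 2 and 3. All IL-33 values were above all PBS values (log2 fold change 2.48, SE 0.26, limma adjusted p = 0.0006502). Casp4, which encodes the mouse caspase-11 that senses cytosolic lipopolysaccharide, had 196, 46.1 and 28.8 in IL-33 replicates 1, 2 and 3, against 8.54, 5.82 and 6.99 in PBS replicates 1, 2 and 3. It was called higher (3.02, SE 0.64, adjusted p = 0.01091, limma), with a wide range among IL-33 libraries, and the call was lost without PBS replicate 3 (adjusted p = 0.05065, limma). Nlrc4, another inflammasome sensor gene (2.27), and Ninj1, a mediator of membrane rupture (0.73), rose, and Ninj1 had −0.31 when scaled to equal totals. Pycard, which encodes the adaptor ASC (−0.81), and Nek7, a partner of NLRP3 (−0.98), fell. Casp4 and Nlrc4 reached the filter through the IL-33 libraries alone, which favours a call of higher. Nlrp3 was called in all 6 fits that left out 1 library. Casp4 and Nlrc4 dropped below the filter without any 1 IL-33 library, and Nlrc4 was not called without PBS replicate 1 or 3. Ninj1 was called in 1 of the 6 fits, Pycard was lost without IL-33 replicate 2 and PBS replicates 2 and 3, and Nek7 without PBS replicates 2 and 3. The list held 1 to 3 genes called higher and 0 to 2 called lower over the fits that left out 1 library, and 1 higher and 9 lower when scaled to equal totals. That scaling called 5727 of all genes, 4.49% of these higher. Its median log2 fold change was −0.99 for the list and −1.08 over all genes.

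Among genes of IL-6 signalling and feedback, 6 of 13 tested rose (46.2%) and 3 fell (23.1%), against 17.4% and 14.4% of all genes tested. The largest increases were in Adam17, the protease that sheds the IL-6 receptor in mouse and human cells (1.84, SE 0.26), the Janus kinase gene Tyk2 (1.70, SE 0.16), the feedback inhibitor genes Socs3 (1.40, SE 0.18) and Socs1 (1.14, SE 0.27), and Jak2 (1.11, SE 0.20). Socs3 had 219, 215 and 222 in IL-33 replicates 1, 2 and 3, against 81.5, 74.2 and 93.0 in PBS replicates 1, 2 and 3, so its IL-33 libraries lay close together where those of Il6 did not. Among those that fell were the tyrosine kinase gene Fes (−0.61) and Pias3, which encodes an inhibitor of STAT3 (−0.55). Adam17, Tyk2, Socs3 and Jak2 were called in all 6 fits that left out 1 library, and Socs1 was lost without PBS replicate 1 or 3. Fes was called in 3 and Pias3 in 1 of the 6 fits, and each was lost when IL-33 replicate 2 was left out, or either of PBS replicates 2 and 3. Over the fits that left out 1 library, 5 to 6 of these genes were called higher and 0 to 3 lower, and when scaled to equal totals 0 were called higher and 4 lower. At equal totals 4.49% of the calls over all genes were higher. The median log2 fold change there was −0.75 for this list and −1.08 over all genes.

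Many regulators of Il6 and Il1b transcription and mRNA decay rose. Of 22 such genes, all tested, 13 were called higher (59.1%), against 17.4% of all genes tested. Their median log2 fold change was 0.79 against −0.03 over all genes. Zc3h12a, which encodes the endonuclease Regnase-1 that degrades Il6 mRNA, rose most (3.79, SE 0.17, adjusted p = 1.96e-05, limma). It was followed by Bcl3 (3.61, SE 0.21) and Nfkbiz (3.41, SE 0.29), which encode nuclear cofactors of NF-kB, by the NF-kB subunit gene Nfkb1 (3.12, SE 0.17) and by Cebpb, a C/EBP family transcription factor gene (2.75, SE 0.30). Zc3h12a had 1877, 1999 and 2447 in IL-33 replicates 1, 2 and 3, against 163, 143 and 147 in PBS replicates 1, 2 and 3. Its IL-33 libraries fell from replicate 3 to replicate 1, an order that 29.2% of tested genes had, while Il6 and Il1b had the reverse. Cebpb likewise was lower in IL-33 replicate 1, at 7328, than in replicates 2 and 3, at 15804 and 15743, with 1541 to 1992 in PBS libraries. Nfkbiz had the order of Il6 and Il1b, at 2864, 1636 and 1464 in IL-33 replicates 1, 2 and 3. A link between these orders and the members was not tested. Zc3h12a, Bcl3, Nfkbiz, Nfkb1 and Cebpb were called in each fit that left out 1 library. The count called higher was 8 without PBS replicate 2 or 3, 9 without IL-33 replicate 2, 16, with 2 lower (Rc3h1 and Elavl1, named after their values were seen), without IL-33 replicate 1, and 6, with 4 lower, when scaled to equal totals. Calls over all genes also moved in the fits that left out 1 library, from 1013 to 5860 in either direction. At equal totals 4.49% of the calls over all genes were higher, and the median was −0.25 for these regulators and −1.08 over all genes. With all libraries and the authors' scaling the count of these regulators called lower was 0 by limma, at an unadjusted p under 0.05, by edgeR and by DESeq2. Over all genes tested, limma called 14.4% lower.

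**Figure D4:**
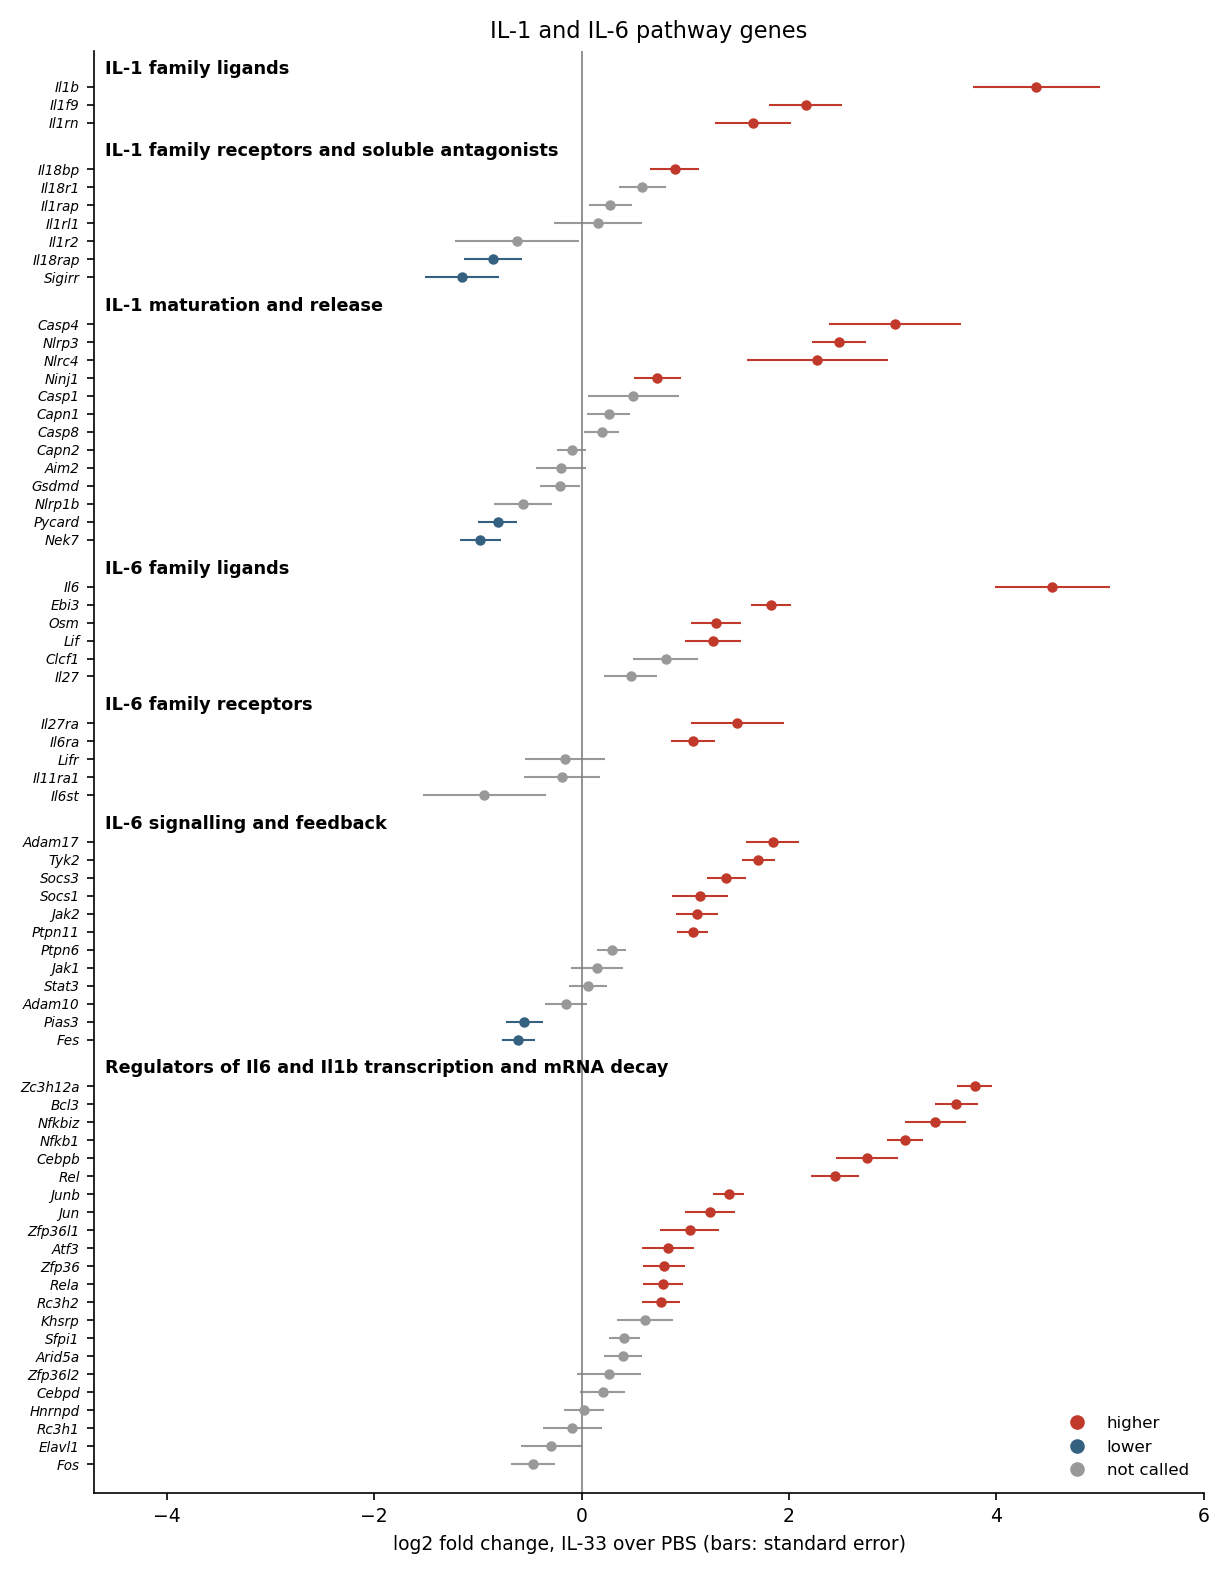
Log2 fold changes, IL-33 over PBS, of tested genes of the IL-1 and IL-6 lists (points) with their standard errors (bars), coloured by call. Il6 at 4.54 and Il1b at 4.39 lie farthest to the right, and Il1r2, at −0.62, is not called.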

How the data were processed

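RNA-seq of 6 libraries was used, 3 with IL-33 and 3 with PBS. The authors deposited normalized counts per gene, a signal obtained by dividing the counts of a library by 1 factor. The tools were HISAT2, HTSeq and DESeq2 and the build mm10, per the submitters' processing notes. Their versions, the annotation used and the strand option of the counting were not given in the sources used here. Reads were recovered from the steps of the values, 100% of them whole within 0.1 of a read, and gave depth and count-based alternatives. Since no molecular identifiers were used, reads are not independent molecules, and intervals cover counting error only.

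Groups were compared, two-sided, with limma 3.58.1 in R 4.3.3 (mean-variance trend) on log2(normalized count + 1), which understates the change of low genes. Genes with a normalized count of at least 10 in at least 3 libraries entered, and Benjamini-Hochberg adjustment covered all of them. Ratios to Il1b were compared by exact permutation of per-library differences of log2(normalized count + 1). The code was tested on simulated data. Exon lengths and gene positions are from GENCODE vM21 (GRCm38), promoters from RefSeq.

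The members and gene lists were chosen with earlier results of these data known. Named genes were the members, Il1r1, Il1rap, Il1rl1, Il6ra and Il6st, up to 5 called genes per direction of each list, and the 5 tested genes most like each member (mean normalized count of at least 50, no predicted gene models). Cell markers come from marker lists. Alternatives were TMM scaling, equal totals with and without Rn45s, pseudocounts of 0.5 and 5, a filter at 50 or none, edgeR 4.0.16, DESeq2 1.42.0, the replicate number as a block, the Rn45s share as a covariate and each library left out. Ly6g was not analysed here, and 1 gene of the IL-6 signalling list, included in its counts, is not reported here by name or drawn.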

Additional observations from a re-analysis of the deposited data

How the results depend on the processing

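Il6 and Il1b were called higher in all 17 alternatives (3.56 to 5.78 and 3.38 to 5.76 on the log2 scale) and Il1rn in 14 of 17. Il1rn had 0.61 when scaled to equal totals. The count of all genes called was 3359, 5727 when scaled to equal totals and 1556 with the Rn45s share as a covariate, which gave Il1a 3.95. Higher genes made up 54.7% of calls with the authors' scaling, 4.49% at equal totals and 20.8% at equal totals without Rn45s. Leaving out 1 library gave 1013 to 5860 genes, 3.91 to 5.14 for Il6, 3.67 to 5.07 for Il1b, 1.51 to 3.13 for Il1a, 1.28 to 1.94 for Il1rn and −1.32 to 0.0192 for Il1r2, with 2 to 3 members called higher and 0 to 1 lower. The difference of log2 fold changes from Il1b ranged from −3.14 to −2.40 for Il1rn, −5.06 to −4.93 for Il1r2, −0.21 to 0.54 for Il6 and −2.31 to −1.81 for Il1a, and for Il1r2 it was −4.65 with a pseudocount of 5. The cause of these shifts was not tested, and fits without 1 library have fewer samples. With the replicate number as a block, 2918 genes were called, Il1r2 stayed uncalled (adjusted p = 0.2615, limma) and members called were 3 higher and 0 lower. Same-numbered libraries deviated together with r of 0.05, 0.24 and −0.16, so the numbers were not taken as pairs, and of the IL-33 libraries replicate 2 alone correlated best with its own number. Low reads limit Il1a, and Il6 and Il1b in PBS.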
